A study of Mus musculus with 28 samples.

Results

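Germ cells of the mouse testis and ovary were compared on 4 one-colour expression arrays: 2 hybridised with RNA of cells labelled spermatogonia and 2 with RNA of cells labelled oogonia, out of 28 arrays in the study. Both groups were chosen by their titles alone, and both came from BDF1 mice crossed to the line Tg(Mvh-Venus)1Rbrc, male for spermatogonia and female for oogonia. Mvh is the mouse Vasa homolog, now Ddx4, and Venus is a fluorescent protein. The labels give no age for either group, speak of cultures for every sample and do not say how these cells were isolated. They also do not state whether a group's 2 RNA samples were taken from different animals. Each p-value therefore measures only the spread between arrays of the same group, which may be technical, pooled over all groups of the study. The other arrays covered primordial germ cells (PGCs) of both sexes at E10.5, E13.5 and E17.5, cultured stem cell lines and adult testis. The E17.5 PGCs used below for comparison, 2 male and 2 female arrays, came from another transgenic line, BDF1 x TgN(deGFP)18Imeg. Of the genes on the array, 12530 could be named through RefSeq and placed on an autosome, and 8861 of these were bright enough to be tested. The X and Y chromosomes were left out.

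Germ cells of both sexes descend from PGCs that share a set of germ cell genes, among them Ddx4, Dazl and the Piwi family. In the fetal ovary they enter meiosis, arrest in late prophase and grow as oocytes that build the zona pellucida and store proteins and RNA for the embryo. In the fetal testis they stop dividing, acquire DNA methylation through Dnmt3a and its cofactor Dnmt3l, and resume division after birth as spermatogonia, some of which act as stem cells. The name oogonium is usually kept for the female germ cell before meiosis.

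Levels are log2 processed signals minus the 75th percentile of the array, taken over the 7227 probes detected (well above background) on each of the 28 arrays, so that 0 is that percentile. A difference is the level in spermatogonia minus the level in oogonia in log2 units, given with the standard error of a limma fit over all 28 arrays. That error can thus reflect the spread of other groups. For Dazl the standard deviation was 0.01 in oogonia and 0.06 in spermatogonia but 1.39 in E10.5 female PGCs. The 2 arrays of each PGC group lay on different slides, while those of oogonia and those of spermatogonia each shared a slide. It was called at an adjusted p under 0.05 (Benjamini-Hochberg over 15318 features). Between 41.3% and 53.6% of probes were well above background on the 4 arrays, within the 17.8% to 76.8% of the whole study. Across the 15318 features tested, with 1 probe for each, the 2 arrays of a group correlated at 0.985 (spermatogonia) and 0.980 (oogonia). Features too dim to be tested did not enter these correlations. Each group lay on a slide and a scan day of its own, and the file headers name a different version of the array's design file for each. Slide, scan day, design version and group cannot be told apart.

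The labels were checked against marker genes. The oogonia arrays carried oocyte genes: 7 of 8 measured oocyte markers were well above background on both arrays, among them Figla, Nobox, Zp1, Zp2, Zp3 and Gdf9, while Zar1 was so on 1 of them. Detection alone did not set the groups apart, since 6 of the 8 were also well above background on both spermatogonia arrays. The groups differed in level: the summed oocyte level was 3.07 and 2.84 in oogonia and -0.67 and -0.90 in spermatogonia. All 4 measured mitotic markers (Top2a, Cdk1, Ccnb1 and Ccna2) were well above background on both arrays of each group. The expression of oocyte genes therefore goes beyond what the usual sense of oogonia covers, and the group is called oogonia here only by its label. On the spermatogonia arrays, 6 of 9 spermatogonial markers were well above background on both arrays, including Nanos2, Gfra1, Id4 and Stra8. Both oogonia arrays had 4 of the 9 well above background. Zbtb16 and Thy1, a pair of widely used spermatogonial stem cell markers, were not well above background on any of the 4 arrays, and Etv5 was so on 1 spermatogonia array.

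Somatic cell markers differed between arrays as well. Stromal and blood genes were higher on oogonia array 1 than on oogonia array 2: Col1a1 lay at -1.22 and -4.76, Dcn at -2.22 and -5.12, Pdgfra at -1.49 and -6.09, and the haemoglobin gene Hba-a1 at 1.91 and -2.90 (genes picked after their values were seen). The summed level of the 10 stromal markers was 0.62 on oogonia array 1 and -2.08 on array 2, against 1.62 and 1.39 on the spermatogonia arrays. The summed Sertoli cell level was -0.11 on both spermatogonia arrays and -2.07 and -2.48 on the oogonia arrays, and 5 of 8 tested Sertoli markers were higher in spermatogonia, among them Sox9 (difference 4.32 ± 0.67, adjusted p = 7.48e-05), Cst9 (4.42 ± 1.07, adjusted p = 0.00279), Inha (3.07 ± 0.87, a call lost without spermatogonia replicate 2, adjusted p = 0.0574, or oogonia replicate 2, adjusted p = 0.0634) and Dmrt1, which germ cells express too; Gata4 and Dhh were not well above background on any of the 4 arrays. Of 10 tested granulosa cell markers, 5 were higher in spermatogonia and none in oogonia, with Foxl2 not above background on any array. The summed granulosa level was 0.32 and 0.18 in spermatogonia and -1.80 and -2.01 in oogonia. For both marker lists the shares over all autosomal genes tested were 35.1% higher in spermatogonia and 17.4% higher in oogonia. The part that cells of these types play in the differences below was not tested, and fewer cells of a type cannot be told apart from less RNA per cell in bulk RNA.

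**Figure D1:**
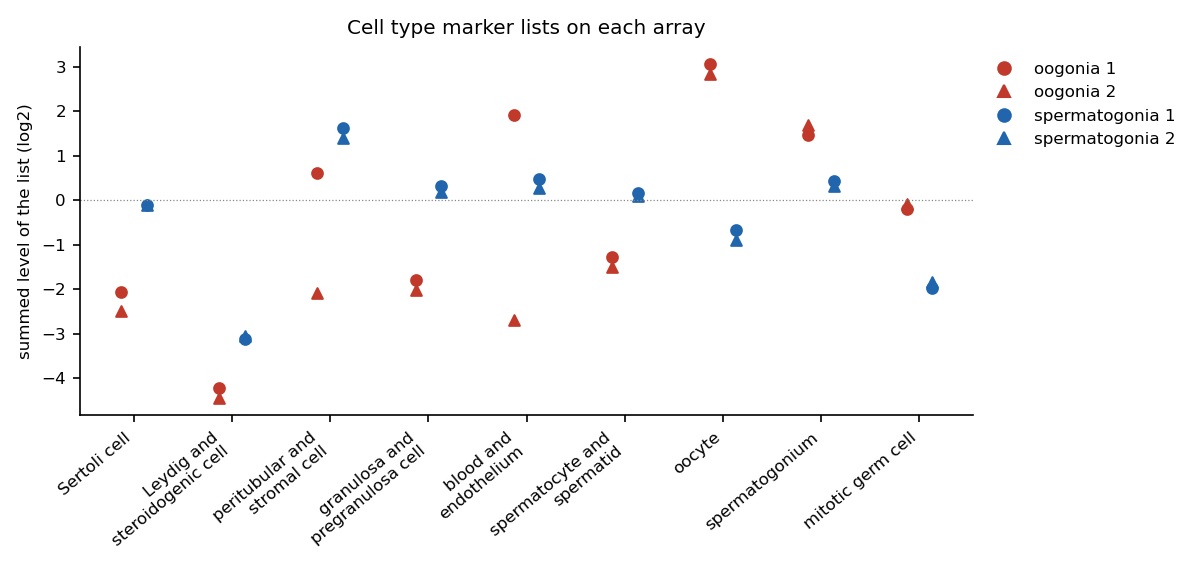
Summed level of each cell type marker list (log2 of the summed linear scaled signal) on the 4 arrays; circles are replicate 1 and triangles replicate 2. The oocyte list was at 3.07 and 2.84 on the oogonia arrays and at -0.67 and -0.90 on the spermatogonia arrays, and the stromal and blood lists separate the 2 oogonia arrays.

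The sexes differed widely. Of the 8861 autosomal genes tested, 4651 (52.5%) were called: 3113 (35.1%) higher in spermatogonia and 1538 (17.4%) higher in oogonia. Differences of at least 2 log2 units, with the brighter group well above background on both arrays, were found for 1897 genes (21.4%) toward spermatogonia and 472 (5.33%) toward oogonia. Over all 15318 features, named and unnamed, 47.9% were called, 31.4% higher in spermatogonia and 16.4% higher in oogonia; of the autosomal genes well above background on all 4 arrays these shares were 32.1% and 18.4%. In 88% of the genes tested the arrays of the 2 groups did not overlap, 54.5% with spermatogonia higher and 33.5% with oogonia higher. The median gene lay 0.42 higher in spermatogonia, and the direction of the balance depended on the scaling: 66.9% of calls were higher in spermatogonia here, 78.9% after normexp background correction, 54.3% after quantile normalization, 45.4% when the percentile was taken over all probes and 36.0% on the authors' deposited values. The median over all genes moved to 0.75, 0.07, -0.20 and -0.79 under those scalings, and the named genes whose difference changed sign under a scaling are given below with that value. Without oogonia array 1, the array with the higher stromal and blood genes, the median over all genes was 0.40. Leaving out oogonia array 2 gave 0.43, and leaving out spermatogonia array 1 or 2 gave 0.47 or 0.38.

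**Figure D2:**
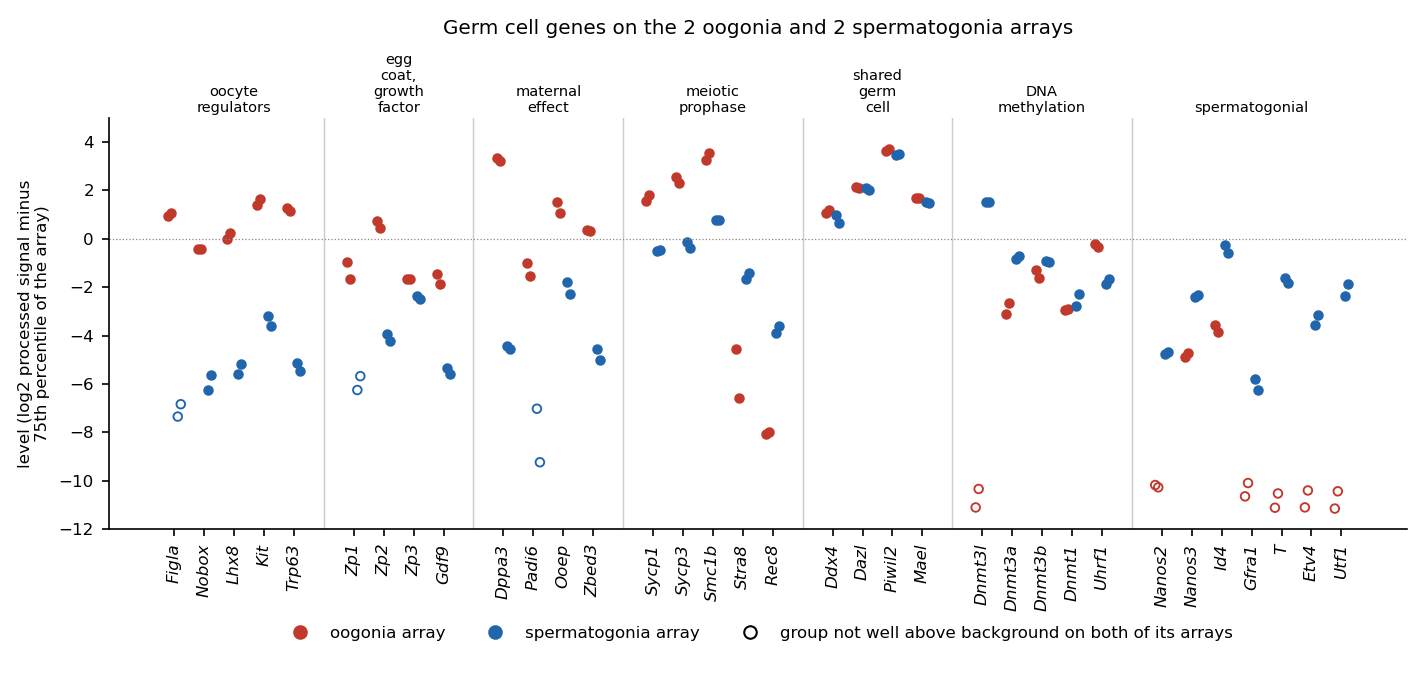
Level of germ cell genes on each of the 2 oogonia arrays (red) and 2 spermatogonia arrays (blue); open symbols mark a group that was not well above background on both of its arrays. Levels compare arrays within a gene, not genes with each other; oocyte genes sit higher in red, the shared germ cell genes lie close together, and Dnmt3l and spermatogonial genes sit higher in blue.

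Transcription factors that direct oocyte formation were far higher in oogonia. Figla, the factor that switches on zona pellucida genes, lay at 0.93 and 1.06 on the oogonia arrays and at -7.35 and -6.84 on the spermatogonia arrays, where 1 of the 2 arrays was above background. Its fitted difference was -8.09 ± 1.03 (adjusted p = 1.07e-05), a size that rests in part on a spermatogonia array not above background. Nobox, a homeobox factor needed by growing follicles, lay at -0.42 and -0.43 against -6.26 and -5.64 (difference -5.52 ± 0.89, adjusted p = 0.000108). Lhx8, another oocyte homeobox factor, lay at 0.00 and 0.23 against -5.58 and -5.17 (difference -5.49 ± 1.11, adjusted p = 0.00072). Of the 4 tested members of the oocyte transcription factor list, these 3 were called and the list's median was -5.51; Sohlh2, a factor that acts in germ cells of both sexes, lay at -1.35 and -1.28 against -2.55 and -2.39 and was not called (adjusted p = 0.232). The same 3 calls were made under each scaling and with slide as a random block. Over all autosomal genes tested, 17.4% were called higher in oogonia.

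Trp63, Kit, Id1 and Id2 were also among the largest differences toward oogonia. Trp63, the p53 relative that guards the genome of resting oocytes, lay at 1.25 and 1.16 in oogonia against -5.15 and -5.48 in spermatogonia, a difference of -6.52 ± 0.71 (adjusted p = 2.29e-06). Kit, the receptor through which follicle cells sustain oocytes and which also marks differentiating spermatogonia, lay at 1.38 and 1.64 against -3.21 and -3.59, a difference of -4.91 ± 0.32 or 30.0-fold (adjusted p = 1.87e-08). Id1 (1.49 and 1.71 against -3.22 and -3.24) and Id2 (0.33 and 0.26 against -4.48 and -4.76), inhibitors of basic helix-loop-helix factors, differed by -4.83 ± 0.65 and -4.92 ± 0.49. Id4, the family member used as a stem cell marker in the testis, went the other way, as given with the spermatogonial genes. The remaining genes among the 12 lowest differences measured on all 4 arrays were Dppa3, Zbed3, Fhl4, Ccnb2, Th and Pdzk1, and all 12 lay between -7.77 and -4.76.

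Genes of the egg coat and of oocyte-secreted growth factors were higher in oogonia. Zp2, a glycoprotein of the zona pellucida, lay at 0.75 and 0.44 in oogonia, compared with -3.94 and -4.24 in spermatogonia, a difference of -4.68 ± 1.04 (25.7-fold, adjusted p = 0.00148). Zp1 lay at -0.95 and -1.67 against -6.25 and -5.68, with 1 spermatogonia array above background (difference -4.66 ± 0.96, adjusted p = 0.000877). Gdf9, the growth factor by which oocytes act on granulosa cells, lay at -1.46 and -1.88 against -5.34 and -5.60 (difference -3.80 ± 0.94, adjusted p = 0.00328). Zp3, the remaining coat glycoprotein measured, lay at -1.64 on both oogonia arrays and at -2.35 and -2.49 on the spermatogonia arrays, and its difference of -0.78 ± 0.67 was not called (adjusted p = 0.357). The fourth call of the list was Izumo1r, the egg receptor of sperm Izumo1 (difference -2.48 ± 0.70), whose 2 probes had opposite signs. Its call was lost after normexp correction, with slide as a random block, when the probes were averaged, and without spermatogonia replicate 2 (-1.96, adjusted p = 0.0873) or oogonia replicate 1 (-2.26, adjusted p = 0.0551). In all, 4 of 6 tested members were called higher in oogonia and none in spermatogonia, beside 17.4% and 35.1% of all genes tested. The list median was -3.14 beside 0.42 over all genes tested.

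Figla acts through the E-box, a sequence of the form CANNTG, in zona pellucida promoters, so the 250 bases upstream of 3 oocyte genes of this comparison are shown with every CANNTG in capitals (RefSeq, GRCm38.p6, written 5' to 3' on the gene's strand). Zp3 is at chr5:135979855-135980104 (+ strand), Nobox at chr6:43309555-43309804 (- strand) and Ooep, a maternal-effect gene, at chr9:78378589-78378838 (- strand).
Zp3: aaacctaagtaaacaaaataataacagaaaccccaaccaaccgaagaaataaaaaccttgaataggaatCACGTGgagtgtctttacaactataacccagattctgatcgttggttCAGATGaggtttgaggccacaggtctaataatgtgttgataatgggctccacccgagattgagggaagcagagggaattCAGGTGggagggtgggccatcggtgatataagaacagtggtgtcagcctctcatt
Nobox: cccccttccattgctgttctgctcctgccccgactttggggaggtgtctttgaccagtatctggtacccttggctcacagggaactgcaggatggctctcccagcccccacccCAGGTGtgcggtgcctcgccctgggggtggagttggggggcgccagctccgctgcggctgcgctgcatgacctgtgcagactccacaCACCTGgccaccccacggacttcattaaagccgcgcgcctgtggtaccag
Ooep: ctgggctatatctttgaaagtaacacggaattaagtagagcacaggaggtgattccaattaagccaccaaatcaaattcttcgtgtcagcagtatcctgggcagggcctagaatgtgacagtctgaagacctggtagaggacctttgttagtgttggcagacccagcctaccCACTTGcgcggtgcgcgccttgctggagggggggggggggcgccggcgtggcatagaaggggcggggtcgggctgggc
Zp3 held 3 such sequences, at positions -181, -134 and -55 from the gene's start, Nobox held 2 and Ooep 1. CANNTG reads the same on both strands. It was present in 57.2% of the 7113 promoters found for tested autosomal genes and in 16 of 18 promoters of the maternal-effect list. Among the 1275 promoters found for all genes called higher in oogonia the share was 55.1%, so the list does not stand for that group. A match describes these letters and not a bound site.

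Maternal-effect genes, whose products the egg stores for the embryo, were called higher in oogonia for 10 of 18 tested members and higher in spermatogonia for 3, beside 17.4% and 35.1% of all autosomal genes tested, with a median difference of -1.85 (-1.75 with dim genes at their bound). With slide as a random block these counts were 5 and 1. Dppa3, which protects maternal DNA methylation in the zygote, had the largest difference of any gene measured on all 4 arrays in this direction. Its levels were 3.32 and 3.22 in oogonia and -4.44 and -4.57 in spermatogonia, a difference of -7.77 ± 0.37 or 219-fold (adjusted p = 5.73e-10). Padi6, a component of the egg's cytoplasmic lattices, lay at -0.98 and -1.54 in oogonia and was not well above background in spermatogonia, which made it at least 46.4-fold higher in oogonia (adjusted p = 0.000136). The same holds for H1f8, the oocyte linker histone, at -2.79 and -3.38 in oogonia and at least 13.1-fold higher there (adjusted p = 0.00353). Zbed3, a member of the subcortical maternal complex, differed by -5.13 ± 0.50 (adjusted p = 7e-07), and Ooep, of the same complex, lay at 1.50 and 1.05 against -1.77 and -2.30 (difference -3.31 ± 0.37, adjusted p = 3.25e-06).

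The 3 members higher in spermatogonia were Zar1 (3.35 ± 0.98, adjusted p = 0.0103), Nlrp2 (2.88 ± 0.47, adjusted p = 0.000126) and Trim28 (0.96 ± 0.31, adjusted p = 0.0177), the corepressor that keeps imprints. Zar1 was above background on 1 oogonia array only, and its call was lost with slide as a random block, against a minimum change of 1 log2 unit, and without spermatogonia replicate 2 (2.98, adjusted p = 0.072) or oogonia replicate 2 (2.88, adjusted p = 0.0819). Trim28 changed sign on the deposited values, to -0.25, and its call was lost without spermatogonia replicate 2 (adjusted p = 0.142), oogonia replicate 1 (adjusted p = 0.0894) or oogonia replicate 2 (adjusted p = 0.0539). The H1f8 call was lost after normexp correction. Of the 18 members with a promoter in RefSeq, out of 22 on the array, 9 (50.0%) held 3 or fewer CpG sites in the 250 bases upstream. That share was 9.21% of all promoters found for tested genes and 5.02% of the 1275 found for genes called higher in oogonia.

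Genes of RNA storage in oocytes and of meiotic arrest differed less evenly. Of 11 tested RNA storage genes, 5 were higher in oogonia, including Cpeb1, which controls translation of stored messages (-2.64 ± 0.77, adjusted p = 0.00985), and Btg4, which removes them after maturation (-5.50 and -5.71 in oogonia, not well above background in spermatogonia, at least 2.28-fold higher in oogonia). Only Zar1 was higher in spermatogonia, and the median was -0.07. For this list and the next, the shares over all genes tested were 17.4% higher in oogonia and 35.1% higher in spermatogonia. After normexp correction 2 of the list's genes were called in each direction and Btg4 turned to 0.26. Without spermatogonia replicate 1 or oogonia replicate 2 the Cpeb1 call was lost (adjusted p = 0.0511 and 0.0752), and that of Btg4 without spermatogonia replicate 2, oogonia replicate 1 or oogonia replicate 2 (adjusted p = 0.105, 0.0643 and 0.0535). Of 8 tested genes of meiotic arrest and maturation, Ccnb2, a partner of Cdk1, was 28.6-fold higher in oogonia (-0.38 and -0.18 against -5.11 and -5.13; adjusted p = 1.77e-07), Cks2 differed by -1.37 ± 0.32 (adjusted p = 0.00228), and the other 6 were not called.

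Meiotic prophase genes were called in both directions. Of 18 tested members 5 were higher in oogonia and 3 in spermatogonia, beside 17.4% and 35.1% of all genes tested, and 10 were not called, with a median of -0.36. This balance depended on the processing. The list's calls toward oogonia and spermatogonia numbered 3 and 3 after normexp correction, and 5 and 1 after quantile normalization. They were 7 and 1 when all probes set the percentile, and likewise 7 and 1 on the deposited values. Slide as a random block left 1 call in each direction, and a minimum change of 1 log2 unit left 2 and 1. The synaptonemal complex genes Sycp3 (2.54 and 2.31 against -0.11 and -0.40) and Sycp1 (1.58 and 1.82 against -0.51 and -0.46) were higher in oogonia by 2.68 and 2.19 log2 units, with differences of -2.68 ± 0.45 (adjusted p = 0.000149) and -2.19 ± 0.58 (adjusted p = 0.00565). The meiotic cohesin gene Smc1b lay at 3.27 and 3.54 in oogonia against 0.77 and 0.78 in spermatogonia (-2.63 ± 0.62, adjusted p = 0.00226). Another meiotic cohesin gene, Rec8, was higher in spermatogonia: -3.91 and -3.59 against -8.06 and -8.00 (4.28 ± 0.46, adjusted p = 2.17e-06). Stra8, which retinoic acid induces at the onset of meiosis in both sexes, was also higher in spermatogonia, at -1.66 and -1.42 against -4.57 and -6.58 (4.03 ± 1.14, adjusted p = 0.00802). Dmc1, the meiotic recombinase, lay at -4.96 and -4.92 in spermatogonia against -6.45 and -6.21 (1.39 ± 0.48, adjusted p = 0.025). With slide as a random block the calls of Sycp1, Smc1b, Stra8 and Dmc1 were lost; that of Stra8 was also lost without oogonia replicate 2 (3.03, adjusted p = 0.1), and those of Sycp1 and Dmc1 after quantile normalization. The Dmc1 call was lost without any 1 of the 4 arrays (adjusted p = 0.0839 and 0.0926 without spermatogonia replicates 1 and 2, 0.114 and 0.0653 without oogonia replicates 1 and 2).

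**Figure D3:**
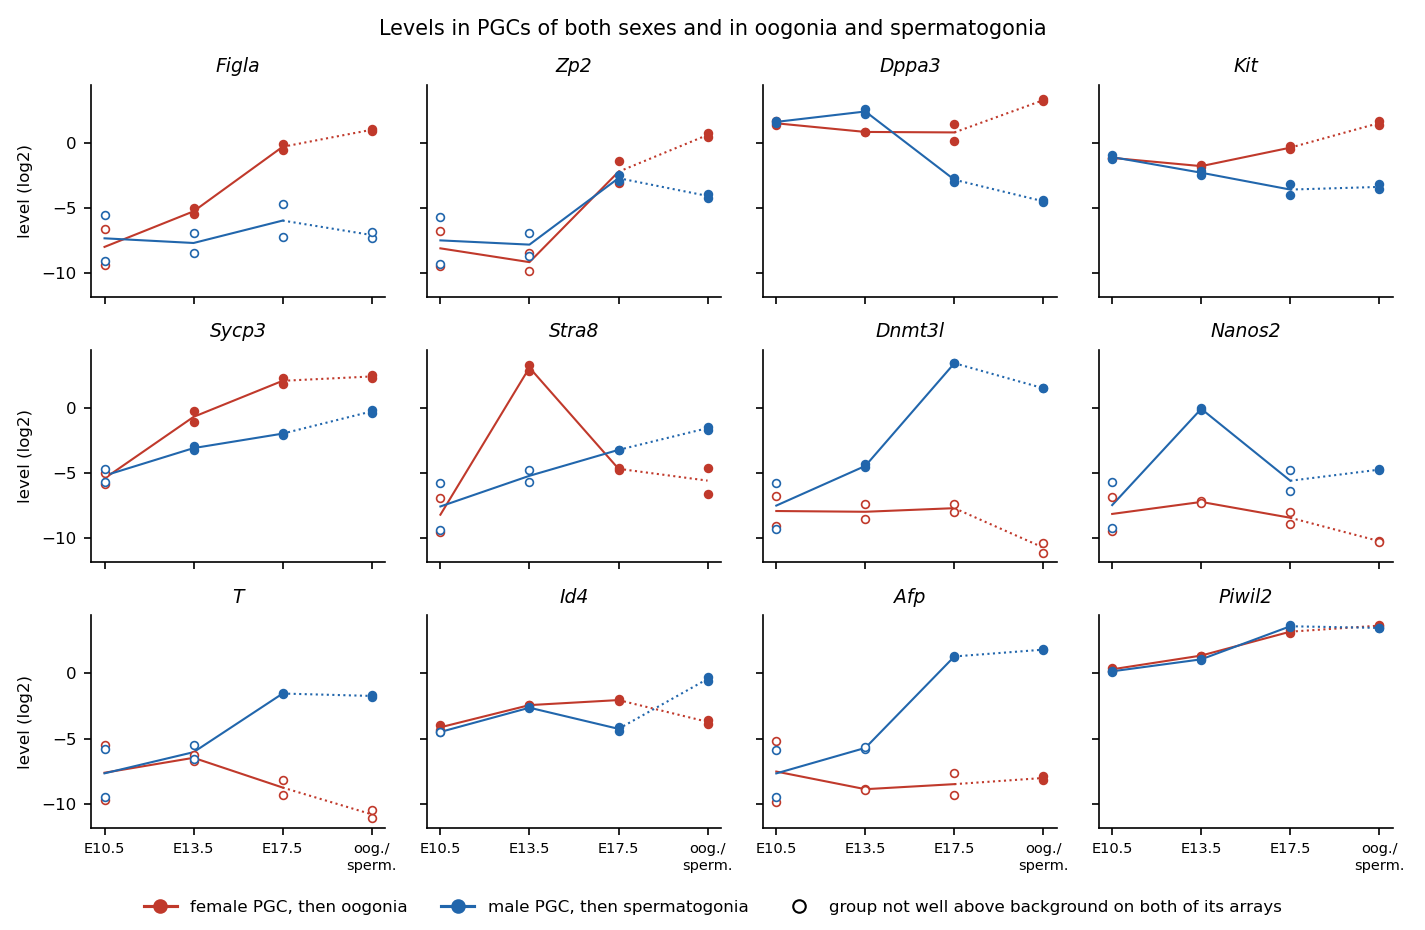
Levels of 12 genes in PGCs at E10.5, E13.5 and E17.5 and in oogonia (red) and spermatogonia (blue), both arrays of each group as points with their mean as a line; dotted lines lead to groups whose age the labels do not give, and open symbols mark groups not well above background on both arrays. Dnmt3l, T and Afp lay high in E17.5 male PGCs and in spermatogonia, Stra8 lay high in E13.5 female PGCs and low in oogonia, and Piwil2 lay close together in oogonia and spermatogonia.

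Core germ cell genes lay close together in both sexes under the scaling used here. Ddx4, the RNA helicase whose promoter names the transgene, lay at 1.06 and 1.21 in oogonia against 0.99 and 0.64 in spermatogonia (difference -0.32 ± 0.49, adjusted p = 0.623). Dazl, an RNA-binding protein of all germ cells, lay at 2.13 and 2.11 against 2.09 and 2.01 (-0.07 ± 0.73, adjusted p = 0.949). Piwil2, a Piwi protein of the piRNA pathway, lay at 3.62 and 3.73 against 3.46 and 3.53 (-0.18 ± 0.27, adjusted p = 0.619), and Mael differed by -0.19 ± 0.48. A p above the threshold does not show that these levels were equal. Of the 11 genes listed as shared, 7 were not called. Dppa4 (4.48 ± 0.43), Dnd1 (7.98-fold) and Pou5f1 (1.77 ± 0.59) were higher in spermatogonia and Stk31 (-2.46 ± 0.65) in oogonia. These 3 calls and 1 call lay below the shares over all genes tested, 35.1% and 17.4%. Calls in the shared list depended on the scaling. They numbered 2 toward spermatogonia and 4 toward oogonia with the percentile over all probes, and 2 in each direction on the deposited values. Within the piRNA and transposon silencing list, 10 of 16 were not called and 5 were higher in spermatogonia, a share near the 35.1% of all genes tested: Morc1 (4.42 ± 0.52), Tex19.2 (3.57 ± 0.45), Tex19.1 (2.15 ± 0.30) and Mov10 (1.77 ± 0.58) were the 4 largest; the Mov10 call was lost without spermatogonia replicate 2, oogonia replicate 1 or oogonia replicate 2 (adjusted p = 0.176, 0.0673 and 0.0824). Pld6, the mitochondrial piRNA enzyme, was higher in oogonia (-1.94 ± 0.49). With the percentile over all probes the counts of this list turned to 3 toward spermatogonia and 7 toward oogonia.

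Dnmt3l had the largest bound in the comparison. This catalytically inactive cofactor of the de novo methyltransferases lay at 1.52 and 1.51 on the spermatogonia arrays and was not well above background on either oogonia array (-11.11 and -10.34), which made it at least 1046-fold higher in spermatogonia (adjusted p = 2.34e-08). Dnmt3a, the de novo enzyme it works with in male germ cells, lay at -0.84 and -0.69 against -3.13 and -2.65 (2.12 ± 0.38, adjusted p = 0.000259). Dnmt3b (-0.92 and -0.95 against -1.28 and -1.62) differed by 0.52 ± 0.32 and the maintenance enzyme Dnmt1 (-2.79 and -2.30 against -2.94 and -2.90) by 0.37 ± 0.49; neither was called. Uhrf1, which brings Dnmt1 to replicated DNA, was higher in oogonia at -0.20 and -0.36 against -1.87 and -1.64 (-1.47 ± 0.40, adjusted p = 0.00639), as were Gadd45a (-1.92 ± 0.56) and Gadd45b (-1.98 ± 0.52), genes that have been linked to demethylation. Of the 15 tested genes of DNA methylation and demethylation, 4 were higher in spermatogonia and 6 in oogonia, beside 35.1% and 17.4% of all genes tested. The Dnmt3a call was lost on the deposited values, that of Uhrf1 with slide as a random block, and those of Gadd45a and Gadd45b after normexp correction and with slide as a random block; that of Gadd45a was also lost without spermatogonia replicate 1 (adjusted p = 0.0852) or oogonia replicate 1 (adjusted p = 0.0561).

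Because Dnmt3l and the stem cell gene Utf1 were not well above background in oogonia and were measured on both spermatogonia arrays, the 250 bases upstream of both are shown with every CG in capitals (RefSeq, GRCm38.p6). The first of 3 RefSeq starts of Dnmt3l is at chr10:78042037-78042286 (+ strand) and Utf1 is at chr7:139943606-139943855 (+ strand). Which of the 3 starts these cells used was not tested, so the sequence shown may not be the promoter active in spermatogonia.
Dnmt3l: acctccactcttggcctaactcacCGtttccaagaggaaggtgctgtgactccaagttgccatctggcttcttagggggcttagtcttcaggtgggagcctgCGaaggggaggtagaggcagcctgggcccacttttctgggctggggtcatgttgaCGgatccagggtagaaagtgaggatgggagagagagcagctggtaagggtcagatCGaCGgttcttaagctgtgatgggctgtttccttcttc
Utf1: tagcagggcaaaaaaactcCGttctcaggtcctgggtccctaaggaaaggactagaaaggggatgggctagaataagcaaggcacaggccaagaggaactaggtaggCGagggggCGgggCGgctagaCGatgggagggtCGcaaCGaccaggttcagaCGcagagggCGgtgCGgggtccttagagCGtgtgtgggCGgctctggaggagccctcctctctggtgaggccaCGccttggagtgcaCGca
This first start of Dnmt3l held 5 CG sites and Utf1 14, while the median of the promoters found for tested genes was 16.

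Genes of spermatogonial stem and progenitor cells were mostly higher in spermatogonia: 16 of 20 tested members, beside 35.1% of all genes tested. Toward oogonia 1 member was called, beside 17.4%, and the median difference was 4.39 (3.78 with dim genes at their bound). T (Brachyury), a T-box factor, lay at -1.64 and -1.82 in spermatogonia and was not well above background in oogonia, at least 110-fold lower there (adjusted p = 0.00021). Utf1, a chromatin protein of stem cells, lay at -2.35 and -1.89 and was at least 84.2-fold higher (adjusted p = 2.21e-08), Upp1, a uridine phosphorylase, at least 49.1-fold (adjusted p = 2.73e-08) and Etv4, an ETS factor downstream of growth factor signalling, at least 35.6-fold (adjusted p = 5.11e-07). Nanos2, the RNA-binding protein that keeps male germ cells from meiosis, lay at -4.78 and -4.68 and was not above background in oogonia (at least 13.8-fold, adjusted p = 0.000381). Gfra1, the GDNF receptor of stem cells, lay at -5.80 and -6.27 and was at least 5.56-fold higher (adjusted p = 0.00746), but the call was lost after normexp correction, with slide as a random block and with a common floor. Id4 lay at -0.27 and -0.58 against -3.57 and -3.87 (3.30 ± 0.29, adjusted p = 3.25e-07), Nanos3 at -2.41 and -2.32 against -4.88 and -4.71 (2.43 ± 0.51, adjusted p = 0.000954). Bcl6b was the exception, at 0.09 and 0.11 in oogonia and -2.09 and -2.12 in spermatogonia (-2.20 ± 0.29, adjusted p = 1.75e-05). Some of these genes were not particular to spermatogonia. In E17.5 male PGCs the mean levels of T, Utf1 and Upp1 were -1.55, -0.10 and -3.01, against -1.73, -2.12 and -2.90 in spermatogonia. Etv4, Nanos2, Nanos3 and Id4 were lower in those PGCs than in spermatogonia, and Gfra1 was not above background there.

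Of 10 tested genes of differentiating spermatogonia, 6 were higher in spermatogonia (median 2.97), beside 35.1% of all genes tested. Besides Stra8 and Rec8 these included Ccnd2, a D-type cyclin (3.37 and 3.26 against -0.67 and -1.18; 4.24 ± 0.51, adjusted p = 5.95e-06), and Dmrt1, a regulator of the choice between mitosis and meiosis (at least 15.7-fold, adjusted p = 0.000115; lost with a common floor). Kit was the member higher in oogonia. Genes listed as markers of spermatocytes and spermatids were detected too. Tnp1, a nuclear protein of spermatids, lay at -2.52 and -2.85 in spermatogonia and was not above background in oogonia (at least 56.7-fold, adjusted p = 0.000239). With Odf1, Crisp2 and Ldhc, 4 of 7 tested members were called higher in spermatogonia, beside 35.1% of all genes tested, and none in oogonia. Not all were particular to this group: in E17.5 male PGCs the mean levels of Tnp1 and Ldhc were -2.42 and -0.13, against -2.69 and -0.67 in spermatogonia. In the same PGCs Odf1 was above background on neither array and Crisp2 on 1. Prm1, another spermatid gene, was not above background on any of the 4 arrays. The summed level of the spermatocyte and spermatid list was 0.17 and 0.09 in spermatogonia and -1.27 and -1.50 in oogonia, and its part in the other differences was not tested.

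Pluripotency genes were higher in spermatogonia in 13 of 17 cases tested and in oogonia in none, beside 35.1% and 17.4% of all genes tested. Their median was 3.03. Tfap2c, an AP-2 factor of PGCs, lay at -0.47 and -0.62 against -5.28 and -6.63 (5.41 ± 0.50, adjusted p = 4.22e-07). Sox2 lay at -2.97 and -3.21 against -8.11 and -8.13 (5.03 ± 1.17, adjusted p = 0.00221), Dppa2 was at least 19.7-fold higher (adjusted p = 1.87e-06), and Dppa4 lay at 2.21 and 1.95 against -2.29 and -2.51. Pou5f1 (Oct4) differed least of those named, at 0.82 and 0.98 against -0.40 and -1.34 (1.77 ± 0.59, adjusted p = 0.0212). The Pou5f1 call was lost under 7 of 16 alternatives, including the percentile over all probes, the deposited values, slide as a random block and leaving out spermatogonia replicate 1 (adjusted p = 0.0661), spermatogonia replicate 2 (0.0921) or oogonia replicate 2 (0.18), and that of Sox2 with slide as a random block. On the deposited values the list counted 8 toward spermatogonia and 2 toward oogonia.

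**Figure D4:**
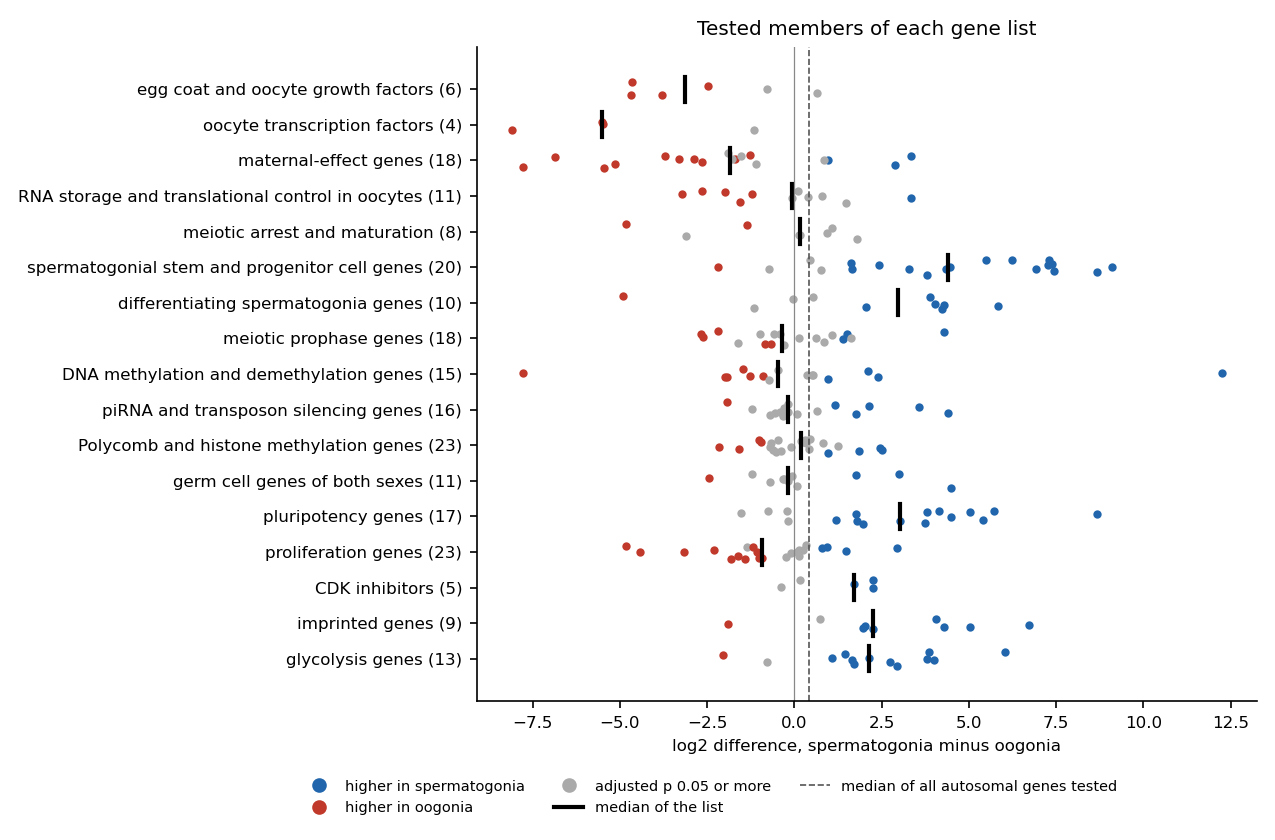
Difference of every tested member of each gene list (spermatogonia minus oogonia, log2), coloured by its call, with the list's median as a black bar, the number tested in brackets and the median of all tested autosomal genes as a dashed line at 0.42. The oocyte factor median lies at -5.51 and the stem and progenitor cell median at 4.39, while the piRNA and Polycomb lists straddle 0.

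Cell cycle genes divided. Of 23 tested proliferation genes 11 were higher in oogonia and 4 in spermatogonia, with a median of -0.93. For this list and the CDK inhibitors, the shares over all genes tested were 17.4% higher in oogonia and 35.1% higher in spermatogonia. Birc5 (survivin), part of the chromosomal passenger complex, lay at 1.82 and 1.75 in oogonia against -2.72 and -2.59 in spermatogonia (-4.44 ± 0.27, adjusted p = 1.24e-08). Cdk1, the mitotic and meiotic kinase, lay at -1.86 and -1.81 against -5.23 and -4.76 (-3.16 ± 0.50, adjusted p = 9.6e-05), and Bub1, a spindle checkpoint kinase, at -1.68 and -1.35 against -3.78 and -3.89 (-2.32 ± 0.42, adjusted p = 0.000279). Mcm7, a subunit of the replicative helicase, was 7.65-fold higher in spermatogonia (2.94 ± 0.29, adjusted p = 8.59e-07), followed by Cdc20, Bub1b and Cdt1 at differences of 1.47, 0.94 and 0.79; on the deposited values none of the 4 was called, and Bub1b turned to -0.27 and Cdt1 to -0.42. The Bub1b call was lost without spermatogonia replicate 1, oogonia replicate 1 or oogonia replicate 2 (adjusted p = 0.118, 0.083 and 0.0566), and that of Cdt1 without spermatogonia replicate 2 or oogonia replicate 2 (0.135 and 0.108). Top2a and Ccnb1 overlapped between the groups. Of 5 tested CDK inhibitors, Cdkn1c (1.18 and 1.08 against -1.21 and -1.05; 2.26 ± 0.41), Cdkn1a (2.24 ± 0.45) and Cdkn2c (1.70 ± 0.48) were higher in spermatogonia, and none of these calls was made on the deposited values; that of Cdkn2c was also lost without spermatogonia replicate 1 or oogonia replicate 1 (adjusted p = 0.0557 and 0.0531).

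Glycolysis genes were higher in spermatogonia in 11 of 13 tested cases (median 2.14), beside 35.1% of all genes tested. Hk2, a hexokinase, lay at -0.60 and -0.57 against -6.66 and -6.59, a difference of 6.04 ± 0.27 or 65.7-fold (adjusted p = 4.99e-10). Aldoc, an aldolase, differed by 4.01 ± 0.28 (adjusted p = 3.23e-08), Pfkp, a phosphofructokinase, by 3.84 ± 0.32 (adjusted p = 1.9e-07), and Hk1 was at least 7.04-fold higher (adjusted p = 7.22e-05; lost with a common floor). Ldhb, the lactate dehydrogenase subunit that favours lactate oxidation, was the 1 member higher in oogonia, at 2.44 and 2.21 against 0.26 and 0.28 (-2.05 ± 0.37, adjusted p = 0.000264). Under the deposited values 5 glycolysis genes were called toward spermatogonia and 2 toward oogonia.

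Of 9 tested imprinted genes 7 were higher in spermatogonia (median 2.26), beside 35.1% of all genes tested. Phlda2, a placental growth regulator, was at least 21.3-fold higher (adjusted p = 1.15e-07), Slc38a4, an amino acid transporter, lay at -0.07 and 0.02 against -4.64 and -5.49 (5.04 ± 0.46, adjusted p = 4.47e-07), and Grb10, a growth factor receptor adaptor, at 2.10 and 1.89 against -1.84 and -2.73 (4.28 ± 0.67, adjusted p = 8.55e-05). Nnat was at least 5.22-fold higher, a call lost after normexp correction, after quantile normalization and with a common floor. Snrpn, above background on 1 spermatogonia array, was the member higher in oogonia (-1.90 ± 0.64, adjusted p = 0.0216), and it turned to 0.40 after normexp correction; its call was lost without spermatogonia replicate 1, oogonia replicate 1 or oogonia replicate 2 (adjusted p = 0.288, 0.0667 and 0.092). Another 8 imprinted genes on the array were too dim to be tested. Of 23 tested Polycomb and histone methylation genes, 4 were higher in each sex, near the 17.4% of all genes tested that were higher in oogonia and below the 35.1% higher in spermatogonia: Phc2 (2.45 ± 0.24) and Cbx2 (2.51 ± 0.47), of Polycomb repressive complex 1, with Kmt2b (1.86 ± 0.32) and Suv39h2 (0.95 ± 0.37, a call lost under 12 of 16 alternatives, among them without any 1 of the 4 arrays, adjusted p from 0.0771 to 0.204) in spermatogonia, and Ring1 (-2.15 ± 0.70), Kdm1b (-1.58 ± 0.49), the oocyte histone demethylase, and Nsd1 among those in oogonia. Cbx2 was above background on 1 oogonia array and Ring1 on 1 spermatogonia array. The Ring1 call was lost without spermatogonia replicate 1, oogonia replicate 1 or oogonia replicate 2 (adjusted p = 0.186, 0.0531 and 0.094), that of Kdm1b without spermatogonia replicate 2, oogonia replicate 1 or oogonia replicate 2 (0.092, 0.0598 and 0.0626) and that of Nsd1 without spermatogonia replicate 1 (0.0656). No call toward spermatogonia in the Polycomb list held on the deposited values, Suv39h2 turned to -0.26 there, and Ring1 turned to 0.32 after normexp correction.

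The largest differences toward spermatogonia among genes measured on all 4 arrays ran from 6.56 to 9.86 and were led by Afp. Afp, alpha-fetoprotein, a secreted protein of fetal liver and yolk sac, lay at 1.85 and 1.80 in spermatogonia and at -8.17 and -7.89 in oogonia, a difference of 9.86 ± 1.19 or 928-fold (adjusted p = 6.61e-06). The lowest signals well above background on oogonia arrays 1 and 2 were -8.82 and -8.20, so the size of this fold rests on oogonia levels close to the detection limit. C3, the central complement protein, lay at 1.30 and 0.96 against -6.30 and -6.32 (7.44 ± 0.90, adjusted p = 6.76e-06). Cmtm8 (7.92), Asphd2 (7.36), Dlgap3 (7.33), Ccdc113 (6.93), Padi3 (6.90), Arhgap9 (6.69), Clca1 (6.66) and St14 (6.56) followed, together with Clgn (6.71 ± 0.31), a chaperone needed for sperm fertility. Among genes below background in oogonia, the largest bounds, given in no order, were those of Dnmt3l, Mgarp, Cdhr1, Fbxo41, Cldn18, Gnat2, Igsf21 and Tspoap1, between at least 125-fold and at least 1046-fold. Toward oogonia the largest bounds were those of Padi6, Cma1, Terb1, Tmem231, Hcst, H1f8, Reg2 and Dpm1, with Padi6 the largest at 46.4-fold; Terb1, which tethers telomeres in meiosis, lay at -2.86 and -2.81 in oogonia. Of 945 called genes with several measured probes, 158 had probes of opposite sign.

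Neighbouring genes were also read in order along the chromosomes (RefSeq order, tested autosomal genes only). There were 93 runs of at least 3 neighbours all higher in spermatogonia by a fitted difference of at least 2 log2 units, counted also where the dimmer group was not above background, and 2 such runs toward oogonia, where 21.4% and 5.33% of tested genes passed that threshold. One of the longest held the 6 keratin genes Krt86, Krt84, Krt5, Krt71, Krt76 and Krt4 on chromosome 15, where Krt71 and Krt76 were not above background in oogonia (at least 13.1-fold and 6.06-fold) and Krt86 was so on 1 oogonia array. Another held Hoxb13, Hoxb7, Hoxb5, Hoxb2 and Hoxb1 on chromosome 11. Hoxb2 was above background on 1 oogonia array and the others on none, which made Hoxb7, at -3.57 and -3.54 in spermatogonia, at least 31.0-fold higher there, Hoxb5 at least 12.2-fold, Hoxb1 at least 10.3-fold and Hoxb13 at least 6.99-fold. The run on chromosome 4 from Iffo2 to Rcc2 held Pax7, a marker of a subset of spermatogonial stem cells, at -3.65 and -3.73 (at least 28.3-fold, adjusted p = 2e-05). The runs toward oogonia were Sephs2, Zfp768, 9130019O22Rik and Zfp689 on chromosome 7 and Pfn2, Serp1 and Selenot on chromosome 3. In the first of these, 9130019O22Rik was not above background in spermatogonia, turned to 0.44 after normexp correction, and lost its call without spermatogonia replicate 2 (adjusted p = 0.115) or oogonia replicate 1 (0.0993). No test was made of whether neighbours moved together. The Krt84 call was lost under 9 of 16 alternatives, among them leaving out any 1 of the 4 arrays (adjusted p from 0.0872 to 0.152), and Krt5 after quantile normalization and on the deposited values.

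The sex difference was then set against that of E17.5 PGCs, whose male and female arrays shared slides within each replicate. All 12 of the highest and all 12 of the lowest genes had fitted differences of the same direction at E17.5. Among the highest, Asphd2, C3 and Ccdc113 were well above background on both E17.5 female arrays and the others on 1 or none, so only the lowest have a range of measured sizes, -5.84 to -1.31 (Lhx8 was above background on 1 male array). Afp lay at 1.35 and 1.26 in E17.5 male PGCs and was not above background in female PGCs, and Dnmt3l lay at 3.43 and 3.46 in male PGCs while not above background in female PGCs. The difference of the differences, tested in the same limma fit, passed for 604 of 9204 autosomal genes (6.56%), 3.65% with a more positive and 2.91% with a more negative difference than at E17.5. That number fell to 77 after normexp correction, 75 on the deposited values and 85 with slide as a random block, so it depends on the processing.

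Id4 and Dppa3 differed from E17.5 under each of the 17 alternatives tried. Id4 lay at -4.42 and -4.10 in E17.5 male PGCs and -1.95 and -2.14 in female PGCs, the reverse of its order in spermatogonia and oogonia, and the change in the difference was 5.51 ± 0.41 (adjusted p = 7.02e-06; 3.24e-06 to 0.0276 over the alternatives). Dppa3 lay at -2.68 and -3.01 in E17.5 male PGCs and 1.41 and 0.16 in female PGCs, and its difference was larger here by -4.14 ± 0.52 (adjusted p = 0.00107; 0.000316 to 0.0396). Zp3 was higher in male than in female PGCs at E17.5 (-2.16 and -2.32 against -4.68 and -5.51), and the change was -3.63 ± 0.94 (adjusted p = 0.0337), a call kept under 6 of 17 alternatives. Nobox (-1.24) and Pou5f1 (-2.88) did not pass, and neither did Sycp1 (2.65), Sycp3 (1.37), Uhrf1 (0.90) and Dnmt3a (0.43). Besides sex and stage the comparison spans different transgenic lines, slides and scan days, which cannot be told apart from it.

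**Figure D5:**
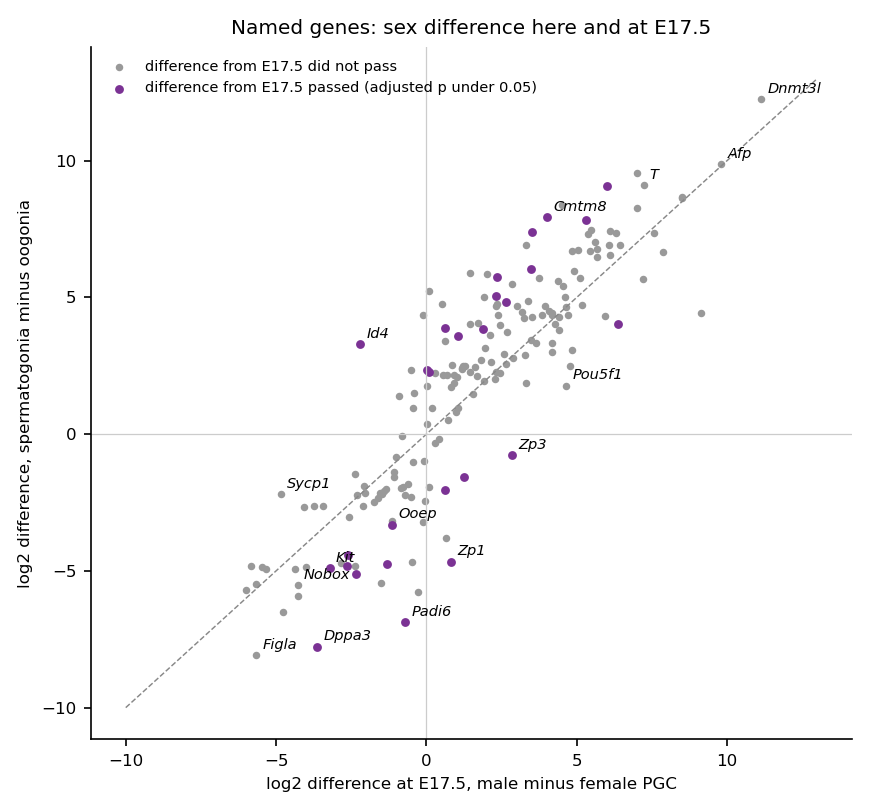
Difference between spermatogonia and oogonia (y axis, log2) against the difference between male and female E17.5 PGCs (x axis, log2) for 187 named genes, with the line of equal difference dashed; the 27 genes in purple differed between the 2 contrasts at an adjusted p under 0.05. Id4, Zp1 and Zp3 are among the genes with opposite signs in the 2 contrasts. The positions of genes with a group below background, such as Dnmt3l and Afp, are fitted values and not measured sizes.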

How the data were processed

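The data are 28 one-colour Agilent expression arrays (Cy3), 2 for each of 14 groups; 4 of them carry this comparison. Total RNA was amplified and labelled from 50 ng, per the labels' protocols. Agilent Feature Extraction 10.5.1.1 turned the scans into processed signal intensity, a background-corrected brightness on a linear scale, per the file headers, which name the mouse build mm9. The deposited series table holds log2 values that equalled the log2 processed signal minus the array's median to within 0.0372; it was used as an alternative.

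From the deposited intensity, the log2 processed signal was taken and the 75th percentile of each array subtracted, over the probes well above background on all arrays (few probes were so on some arrays). Control spots and 514 probes flagged as non-uniform were left out. The probe with the highest mean stood for a gene, named by accession through RefSeq GRCm38.p6, and a gene was tested where both spermatogonia arrays, or both oogonia arrays, had that probe well above background. limma 3.58.1 in R 4.3.3 fitted 1 mean per group over all 28 arrays, with Benjamini-Hochberg adjustment; the procedure was tested on simulated data. Where 1 group was not well above background, a fold is given as "at least": the bright group's mean against, on each array of the dim group, the higher of the lowest signal well above background and the probe's own. The number of arrays limits the precision.

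The text names the 12 highest and 12 lowest differences measured on all 4 arrays, the 8 largest bounds in each direction, called members of the fixed lists, a set of key germ cell genes, genes of the longest runs of neighbours and genes of the difference from E17.5; a few that met these rules are not reported here, and others are said to be chosen after their values were seen or are list members given for completeness. The members and lists were chosen with earlier results of these data known. Alternatives covered background correction (normexp, on the median signal because the mean signal column was not used), normalization, filters, blocks, probe choice and leaving out each array. Replicate numbers did not pair the samples: deviations of arrays with the same number correlated at 0.027.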

Additional observations from a re-analysis of the deposited data

Results flagged for a closer look

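The sex difference between spermatogonia and oogonia departed from that between male and female E17.5 PGCs for 604 autosomal genes in the limma fit. It did so for 27 of the 187 named genes, and only part of these 27 is given next. The part consists of the key germ cell genes among them, with Ccnb2, Cmtm8, Pdzk1 and Zbed3 added. Among the named genes, the difference was more negative than at E17.5 for Zp1 (by -5.47, adjusted p = 0.0284, called under 7 of 16 alternatives; above background on 1 spermatogonia array), Zp3 (-3.63, adjusted p = 0.0337, 6 of 17), Ooep (-2.17, adjusted p = 0.0251, 7 of 17), Dppa3 (-4.14, adjusted p = 0.00107, 17 of 17), Kit (-1.69, adjusted p = 0.0389, 5 of 17), Ccnb2 (-2.21, adjusted p = 0.0337, 4 of 17), Pdzk1 (-3.45, adjusted p = 0.0134, 9 of 17) and Zbed3 (-2.79, adjusted p = 0.0292, 5 of 17). It was more positive for Id4 (5.51, adjusted p = 7.02e-06, 17 of 17) and Cmtm8 (3.90, adjusted p = 0.00824, 14 of 16), which was above background on 1 E17.5 female array. Oogonia levels entered every one of these values, and the 2 contrasts differ in transgenic line and slides as well as in stage.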

How the results depend on the processing

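Each group has 2 arrays on a slide of its own, so the counts depend on how the spread is pooled. With slide as a random block 2795 autosomal genes were called, 2020 higher in spermatogonia and 775 in oogonia (4278 of all features); against a minimum change of 1 log2 unit 2121 were called, 1681 and 440 (3231 of all features). Calls higher in oogonia numbered 814 after normexp correction and 2588 where the percentile covered all probes. Calls higher in spermatogonia numbered 1199 on the deposited values. The count of genes that differed from E17.5 was 77 after normexp correction, 75 on the deposited values, 355 with no filter, 244 with only the arrays compared, 85 with slide as a random block, and 165 to 444 when 1 array was left out, lowest without spermatogonia replicate 1. With the replicate number as a block, 4752 genes were called and 663 differed from E17.5, and all 181 calls among 189 named genes were kept. Other alternatives kept fewer of these 181 calls. With slide as a random block 44 were lost, and against a minimum change of 1 log2 unit 42 were lost. On the deposited values 36 were lost and 4 changed sign, and after normexp correction 20 were lost and 4 changed sign. After normexp correction 9130019O22Rik turned to 0.44, Btg4 to 0.26, Ring1 to 0.32 and Snrpn to 0.40; on the deposited values Bub1b turned to -0.27, Cdt1 to -0.42, Suv39h2 to -0.26 and Trim28 to -0.25. The cause of these changes was not tested. A fit with scan day as a block could not be estimated and was not run.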
